A study of Mus musculus with 8 samples.

Results

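The La protein gene Ssb and the 6 La-related protein genes Larp1, Larp1b, Larp4, Larp4b, Larp6 and Larp7 were followed in METTL5 knockout (KO) and wild-type (WT) mouse embryonic stem cells (mESC). They were taken by gene symbol, and all 7 were found among the 23845 symbols of every deposited table. Ssb was chosen by its KO and WT counts in these tables and because its 3′ end meets that of Mettl5, and the others because they share its RNA-binding La module. The KO against WT values of all 7 are therefore a description, with no test.

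METTL5 places N6-methyladenosine on the RNA of the small ribosomal subunit, and the KO cells carry a knockout of its gene. The groups were KO Ribo-seq, WT Ribo-seq, KO RNA-seq and WT RNA-seq, with 2 libraries each, all from early-passage mESC with no other allele or agent named. Ribo-seq reads are ribosome footprints, the mRNA pieces that ribosomes protect, here from gradient-purified monosomes, and RNA-seq reads come from total RNA. Replicates are named as biological, and whether the KO libraries come from a single clone is not stated.

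La-family proteins bind RNA through a La motif that sits next to an RNA recognition motif. La itself, encoded by Ssb, holds the uridine-rich 3′ ends of new RNA polymerase III transcripts such as tRNA precursors and protects them from exonucleases. LARP7 is the stable partner of the 7SK RNA, which keeps the elongation kinase P-TEFb inactive. LARP1, and probably its close relative LARP1B, acts on the cap and start of terminal oligopyrimidine (TOP) mRNAs, the mRNAs of ribosomal proteins and elongation factors that respond to mTOR. LARP4 and LARP4B bind poly(A) tails or poly(A)-binding protein and lengthen the life of mRNAs. LARP6 binds a stem-loop of collagen mRNAs.

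Ssb and Larp7, which carry the RNA-seq differences described below, each have genes on the opposite strand. Positions are from GENCODE M21 (GRCm38). Ssb occupies chr2:69861562-69871846 on the plus strand, and Mettl5 occupies chr2:69871198-69885615 on the minus strand. Exons of the pair share 169 bases, out of 2160 exon bases of Ssb. Ssb exons also share 431 bases with the minus-strand transcript Gm13625, which has no entry under that symbol in the tables. Larp7 occupies chr3:127536714-127553349 on the minus strand. The 5 hairpins Mir302a, Mir302b, Mir302c, Mir302d and Mir367, which form a microRNA cluster typical of pluripotent stem cells, lie on the plus strand inside a Larp7 intron and overlap no Larp7 exon. Zgrf1, a putative helicase gene, starts on the plus strand 139 bases from the Larp7 start. Larp4 (chr15:99970065-100016358, plus strand) shares 204 exon bases with the antisense transcript 2310068J16Rik. Exons of Larp1 (chr11:58009064-58062034), Larp1b (chr3:40949828-41040234), Larp4b (chr13:9093881-9174451) and Larp6 (chr9:60712989-60738801), all on the plus strand, overlap those of no other annotated gene.

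**Figure D1:**
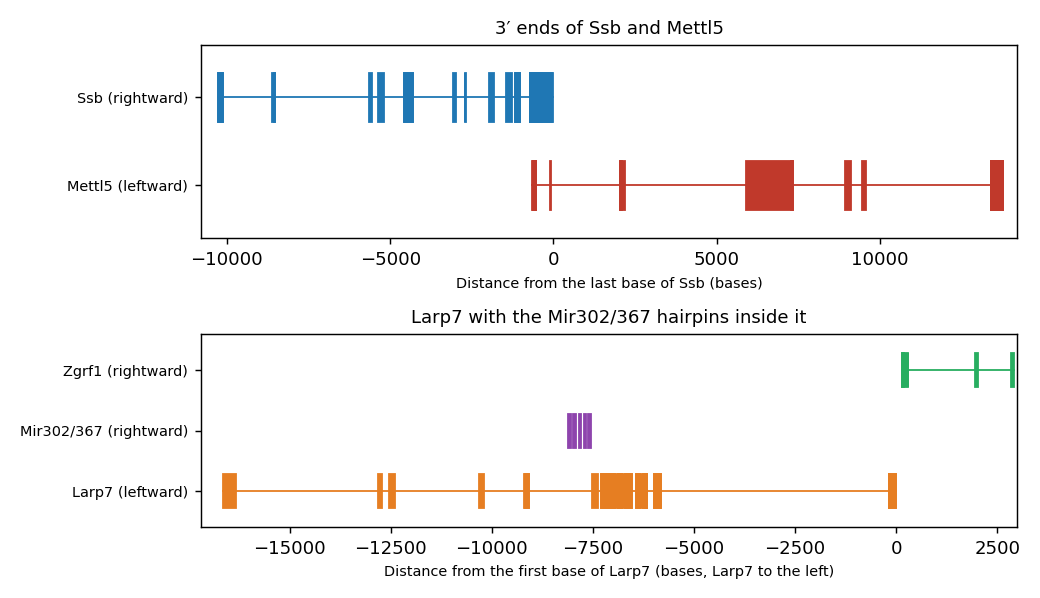
Exons (boxes) and gene spans (lines) of Ssb and Mettl5 (top; distance from the last base of Ssb) and of Larp7, the microRNA hairpins and the start of Zgrf1 (bottom; distance from the first base of Larp7), in bases, from GENCODE M21. Exons of Ssb and Mettl5 share 169 bases, and the 5 microRNA hairpins lie between Larp7 exons on the other strand.

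Mature microRNAs of the cluster inside Larp7 are shown because they mark what else that locus produces in stem cells. The sequences are from RefSeq (GRCm38.p6), written 5′ to 3′, with the seed (bases 2 to 8) in capitals. Among those shown, the seed AAGUGCU is shared by mmu-miR-302b-3p and mmu-miR-302d-3p, while mmu-miR-302c-3p has AGUGCUU and mmu-miR-367-3p has AUUGCAC. The sequence of mmu-miR-302a-3p was not in the source used, so its seed is not compared here.
mmu-miR-302b-3p: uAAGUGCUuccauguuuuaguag
mmu-miR-302d-3p: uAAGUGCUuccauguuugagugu
mmu-miR-302c-3p: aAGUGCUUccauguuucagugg
mmu-miR-367-3p: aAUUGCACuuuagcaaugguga

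The 250 bases before the Ssb start are shown because Ssb carries the largest RNA-seq difference of the family, and this end of the gene is the one away from Mettl5. The stretch is chr2:69861312-69861561 on the plus strand (RefSeq, GRCm38.p6), 5′ to 3′, with the 2 matches to the GC box GGGCGG in capitals.
Ssb promoter: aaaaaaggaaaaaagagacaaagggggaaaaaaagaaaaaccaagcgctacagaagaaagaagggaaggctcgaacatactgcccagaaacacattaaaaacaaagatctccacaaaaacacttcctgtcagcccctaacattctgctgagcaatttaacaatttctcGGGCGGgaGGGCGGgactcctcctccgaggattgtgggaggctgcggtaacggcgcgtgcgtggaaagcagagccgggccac
Searched on both strands, GGGCGG was in 32.7% of 32851 such windows, and 16.7% held at least 2 matches. CCAAT (33.9% of windows), TATAAA (12.4%) and TGACGTCA (1.55%), the cAMP response element, were not in the Ssb window, and the 250 bases before Larp7 held 1 TGACGTCA and 1 CCAAT. These matches are letters only and were chosen for description after values were seen.

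The footprint tables were deep and the RNA-seq tables shallow. Total expected counts were 9322662 and 11487964 in KO Ribo-seq and 10466185 and 8401463 in WT Ribo-seq, against 152195 and 173389 in KO RNA-seq and 211353 and 219567 in WT RNA-seq. In 1 library, 3 counts stood for 0.261 to 0.357 counts per 1e6 total counts (CPM) in Ribo-seq and 13.7 to 19.7 CPM in RNA-seq, which covers counting error only. The top 100 footprint genes held 31.4% to 36.6% of footprint counts but 1.38% to 9.01% of RNA-seq counts. The strand on which reads were counted is not stated, so RNA-seq values below are counts assigned to a gene, and whether they come from its mRNA or from the other strand cannot be told apart. The ribosomal precursor entry Rn45s took 0.638% and 1.02% of KO RNA-seq counts and 7.99% and 3.33% of WT RNA-seq counts. All 10 stem cell markers had footprints in every Ribo-seq library, with Klf4 lowest at 59.4 and 37.1 CPM in KO and 47.1 and 44.3 CPM in WT, and their sums were 3824 and 3175 CPM in KO and 3691 and 3640 CPM in WT. Of these 10, edgeR called Tfcp2l1 higher (0.76, adjusted p = 0.0491), as were 1.83% of all tested genes. Tfcp2l1 had 0.60 when KO replicate 1 was left out, and it was not called at a mean count of at least 50. DESeq2 called 3 of the 10, 2 higher and 1 lower, and 3.04% of all tested genes in either direction. Summed footprints of 10 endoderm markers were 1264 and 1529 CPM in KO and 1948 and 2008 CPM in WT, with none at 0. Of 9 tested, 3 were called lower, as were 0.617% of all tested genes. Summed footprints of 10 fibroblast markers were 471 and 674 CPM in KO and 196 and 102 CPM in WT. Lum was at 0 in all Ribo-seq libraries and Twist2 at 0 in WT replicate 1. Of 8 tested, 3 were called higher, as were 1.83% of all tested genes. Among these 3, Col3a1 passed the filter on low counts only through KO. In RNA-seq the sums were 347 and 309 CPM in KO and 564 and 655 CPM in WT for stem cell markers, 256 and 138 CPM in KO and 213 and 223 CPM in WT for endoderm markers, and 230 and 116 CPM in KO and 23.7 and 9.11 CPM in WT for fibroblast markers. Of the 10 stem cell markers, 4 and 2 were at 0 in KO RNA-seq and 3 and 0 in WT RNA-seq. Of the 10 endoderm markers, 5 and 3 were at 0 in KO and 3 and 1 in WT. Of the 10 fibroblast markers, 4 and 6 were at 0 in KO and 7 and 9 in WT. The WT fibroblast sums were close to the 14.2 and 13.7 CPM that 3 counts stood for in those libraries. The part of cells of these types in the results below was not tested. In bulk samples, fewer cells of a type and less RNA per cell cannot be told apart.

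Mettl5, the targeted gene, had 4.08 and 4.79 CPM of footprints in KO against 41.2 and 45.9 CPM in WT (log2 fold change -3.27, SE 0.22; adjusted p = 0.00131, edgeR quasi-likelihood test). In RNA-seq it had 39 and 55 counts in KO against 84 and 132 in WT. The groups were apart in both assays, but the RNA-seq difference did not pass the test (log2 fold change -0.88, SE 0.32, adjusted p = 0.126 by edgeR; footprint minus RNA-seq log2 fold change, called the relative footprint change, -2.35).

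Ssb, the gene of La itself, had fewer footprints in both KO libraries than in either WT library. They were 381 and 383 CPM in KO and 537 and 553 CPM in WT, with replicates close together in each genotype. The KO mean of 382 ± 1.31 CPM was 70.1% of the WT mean of 545 ± 10.8 CPM (SD, n = 2 each). The log2 fold change of Ssb in footprints was -0.50 (SE 0.15). Taken within each replicate number, KO over WT on log2(CPM + 0.5) was -0.49 for number 1 and -0.53 for number 2.

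In RNA-seq, Ssb was at or under 3 counts in the KO libraries. It had 3 and 1 expected counts in KO and 50 and 36 in WT, which are 19.7 and 5.77 CPM in KO against 237 and 164 CPM in WT. The sum of 4 KO counts against 86 WT counts is a depth-adjusted ratio of 0.0616, and the exact 95% interval for counting error alone runs between 0.0164 and 0.163. This interval leaves out variation between replicates, and Ssb was chosen by these counts, so it is no test. The log2 fold change of -4.05 (SE 0.64) had rank 6 from the lowest of the 2087 genes tested. Both assays had Ssb lower in KO, by very different amounts. The footprint minus RNA-seq log2 fold change, the relative footprint change, was 3.63 (SE 0.57), rank 6 from the top of the 1458 genes that passed in both assays. Reads over the exon bases shared with Mettl5 and Gm13625 were not counted apart, so their part in the Ssb values was not tested.

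**Figure D2:**
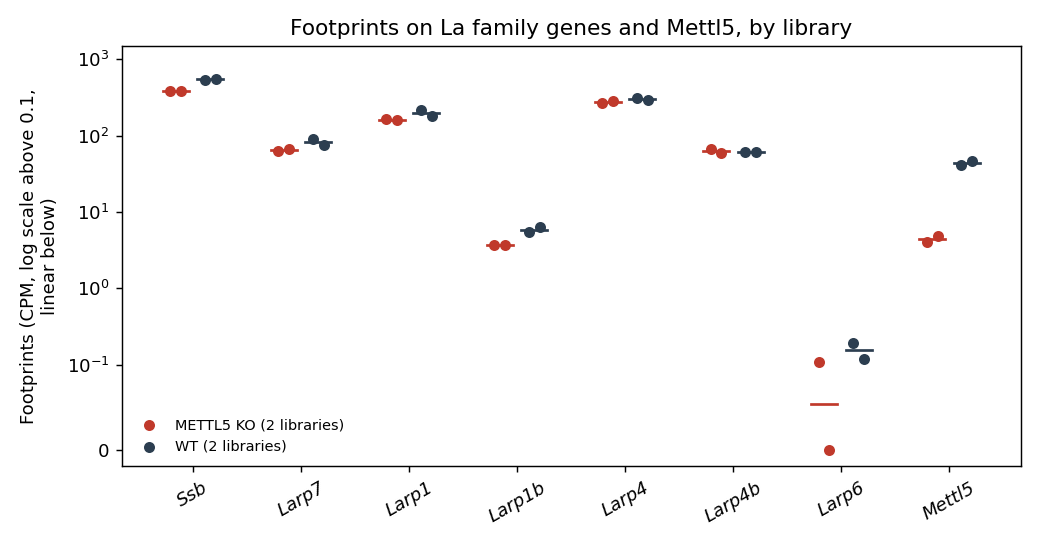
Footprints in CPM of the 7 La-family genes and Mettl5 in each Ribo-seq library (points, KO left of WT; lines, means of 2 libraries; log axis above 0.1). Ssb, Larp7, Larp1, Larp1b and Larp4 have both KO points below both WT points, and Mettl5 drops to 4.08 and 4.79 CPM in KO against 41.2 and 45.9 CPM in WT.

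Larp7, the 7SK partner, had opposite directions in the counts of the 2 assays. Its RNA-seq counts were 20 and 42 in KO against 4 and 3 in WT, or 131 and 242 CPM in KO against 18.9 and 13.7 CPM in WT. Both KO libraries stood above both WT libraries, 11.5-fold on the mean CPM, and the ratio of summed counts was 11.7 (exact 95% interval 5.36 to 30.4, counting error only). That interval, too, leaves out variation between replicates and is no test. The RNA-seq log2 fold change of Larp7 was 3.39 (SE 0.59), rank 25 from the top of 2087. Its footprints were 62.3 and 66.9 CPM in KO and 89.3 and 76.1 CPM in WT. Here both KO libraries stood below both WT libraries, with a log2 fold change of -0.34 (SE 0.17). The relative footprint change of Larp7 was -3.75 (SE 0.56), rank 12 from the lowest of 1458. As for Ssb, the strand of the RNA-seq counts is not known.

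The genes beside and inside Larp7 had few RNA-seq counts. Zgrf1 had 1 and 1 counts in KO RNA-seq and 0 and 1 in WT RNA-seq. Its footprints were 11.8 and 12.9 CPM in KO and 12.8 and 16.2 CPM in WT, with overlapping groups. Each of the 5 hairpin entries had at most 1 count in any library of either assay, too few to compare.

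**Figure D3:**
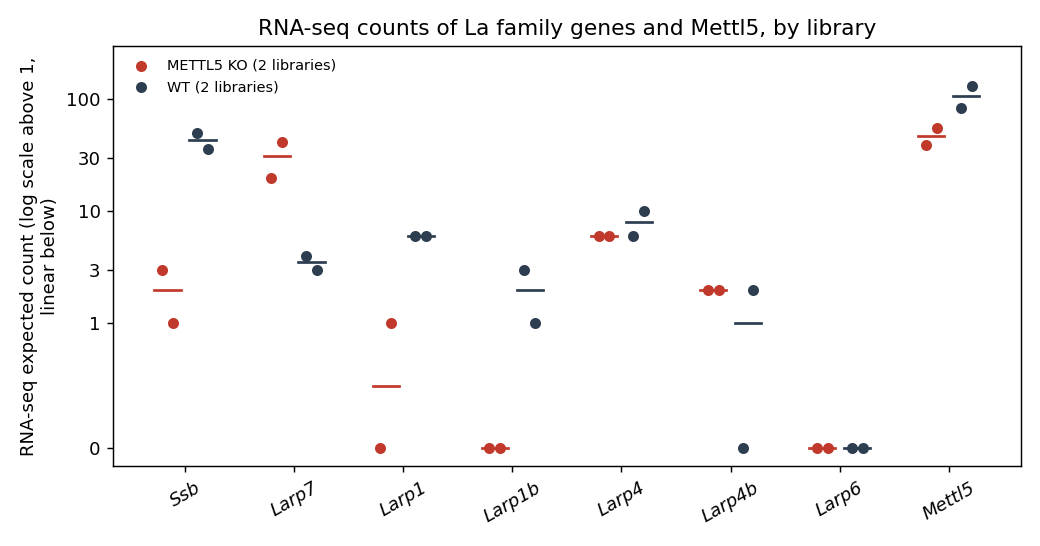
RNA-seq expected counts of the same genes in each library (points, KO left of WT; lines, means of 2 libraries; log axis above 1). Ssb has 3 and 1 counts in KO against 50 and 36 in WT, Larp7 has 20 and 42 in KO against 4 and 3 in WT, and the other 5 members have at most 10.

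Larp1, the regulator of TOP mRNAs, had 165 and 160 CPM of footprints in KO and 219 and 181 CPM in WT. The groups did not overlap, though the 2 WT libraries were further apart than WT replicate 2 was from KO. The log2 fold change of Larp1 was -0.29 (SE 0.16), and -0.14 without WT replicate 1. Larp1 lies on chromosome 11, whose 999 tested genes had a median of -0.25, and with that median removed its value was -0.04. In RNA-seq it had 0 and 1 counts in KO against 6 and 6.06 in WT (ratio of summed counts 0.110, exact 95% interval 0.00258 to 0.745, counting error only). Variation between replicates is left out of that interval, and it is no test.

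Larp1b, its paralogue, had a mean of 4.48 TPM (transcripts per 1e6, a level per length) in footprints over the 4 libraries, below the 43.1 TPM of Larp1. Its footprints were 3.75 and 3.66 CPM in KO and 5.45 and 6.31 CPM in WT, from 35 and 42 counts in KO and 57 and 53 in WT. The groups were apart, and the log2 fold change of -0.65 (SE 0.28) was the lowest of the family in footprints. In RNA-seq it had no counts in KO and 3 and 1 in WT, all at or under 3 counts a library.

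Larp4 and Larp4b, which act on poly(A) mRNAs, had the smallest differences in footprints. Larp4 had 268 and 286 CPM in KO and 312 and 290 CPM in WT, a narrow gap between groups, with a log2 fold change of -0.11 (SE 0.16). Larp4b had 66.2 and 59.1 CPM in KO and 61.1 and 60.9 CPM in WT, so the WT libraries lay between the KO libraries (0.05, SE 0.16). Larp4 RNA-seq counts were 6 and 6 in KO and 6 and 10 in WT, and those of Larp4b were 2 and 2 in KO and 0 and 2 in WT. RNA-seq differences of that size were not detectable at this depth.

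Larp6, the collagen mRNA binder, was close to absent. It had 1 and 0 footprint counts in KO and 2 and 1 in WT, and 0 counts in all 4 RNA-seq libraries, which allows up to 13.7 to 19.7 CPM. It was the member that did not pass the filter on low counts in footprints.

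**Figure D4:**
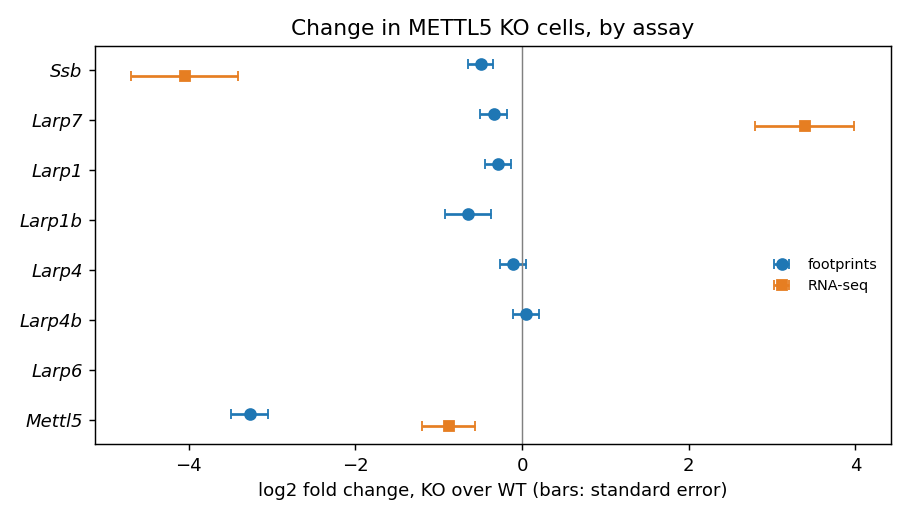
Log2 fold change, KO over WT, with standard error, of each gene that passed the filter on low counts, in footprints (circles) and RNA-seq (squares). Footprint values of the members lie between -0.65 and 0.05, while Ssb is at -4.05 and Larp7 at 3.39 in RNA-seq.

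Across the family, 5 of the 6 members that passed the footprint filter had both KO libraries below both WT libraries, as did 25.5% of all 12315 tested genes, and 0 had both above, as did 24.3%. At an adjusted p below 0.05 in the edgeR quasi-likelihood test, 0 of the 6 were called (2.44% of all genes, 1.83% higher and 0.617% lower; 2387 genes had an unadjusted p below 0.05), and DESeq2 also called 0 of the 6. The share of all genes called was 6.04% when WT replicate 1 was left out, 3.94% when WT replicate 2 was left out and 1.499% when KO replicate 2 was left out. None of these fits had a block for replicate number. With that block, Ssb, Larp1 and Larp7 were called, as were 24.04% of all genes. The contrast was used to choose the family, so nothing is read from either count. The median footprint log2 fold change of the 6 was -0.32, and that of all tested genes was 0.01.

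In RNA-seq, Ssb and Larp7 passed the filter. Ssb was called lower, as were 2.68% of 2087 genes, and Larp7 higher, as were 3.69% (6.37% in either direction, 2.74% when KO replicate 1 was left out and 10.2% when WT replicate 1 was left out). Both KO libraries lay below both WT libraries for 21.7% of genes and above them for 30.1%. For the relative footprint change Ssb was called higher, as were 4.73% of 1458 genes, and Larp7 lower, as were 4.53% (9.26% in either direction). That last share was between 1.21% and 5.54% with any Ribo-seq library or either KO RNA-seq library left out. Both genes passed the RNA-seq filter through the genotype in which they were high, and the contrast was used to choose the family, so nothing is read from these calls.

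The order of the family was set on TPM. In footprints Ssb led with 288 and 300 TPM in KO and 411 and 432 TPM in WT, which was the 97.9th to 98.4th percentile of all entries. Larp4 (63.3 to 74.7 TPM over the 4 libraries), Larp7 (45.7 to 66.3) and Larp1 (38.4 to 51.7) followed, and each of these overlapped its neighbour in range. Larp4b (20.2 to 21.8 TPM), Larp1b (3.44 to 5.98 TPM) and Larp6 (at most 0.13 TPM) stood apart below them. In RNA-seq every neighbouring pair overlapped, and the order of Ssb and Larp7 differed by genotype. Ssb had 24.8 and 7.77 TPM in KO against 290 and 205 TPM in WT, and Larp7 had 161 and 317 TPM in KO against 22.5 and 16.6 TPM in WT.

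The genes with the RNA-seq and footprint profile most like that of Ssb were sought by Euclidean distance over the 8 libraries on log2(CPM + 0.5), centred on the WT mean of each assay, among 1458 genes. The nearest was Sqstm1, the autophagy receptor p62, at a distance of 2.06, with RNA-seq log2 fold change -2.52 and footprints -0.23. It was followed by Lars2, the mitochondrial leucyl-tRNA synthetase (2.11), Esyt2, a membrane-tethering protein (2.23), Becn1, an autophagy regulator (2.36), and Mir6240 (2.53). All 5 had RNA-seq log2 fold changes between -5.10 and -2.52. For Lars2, RNA-seq reached 1058 and 1321 CPM in KO and 45696 and 8303 CPM in WT, so its WT libraries were far apart. Esyt2 (0.55) and Mir6240 (0.11) had positive footprint values, unlike Ssb. Sqstm1 (-0.23) and Becn1 (-0.25) lie on chromosome 11, where the footprint median of tested genes was -0.25. In KO RNA-seq 3 counts stood for 19.7 and 17.3 CPM. There Sqstm1 had 26.3 and 5.77 CPM, Becn1 6.57 and 0 CPM and Esyt2 6.57 and 5.77 CPM.

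Genes around the Ssb and Mettl5 pair had smaller footprint differences than Mettl5. Of 8 other genes within 500000 bases with a mean footprint count of at least 10, edgeR and DESeq2 each called 0 in footprints (1 had an unadjusted p below 0.05), and their log2 fold changes ran from -0.87 for Ccdc173 to 0.71 for Klhl23. The endocytic receptor gene Lrp2 had -0.34 (adjusted p = 0.261), the cyclophilin gene Ppig -0.37 (0.254), the ubiquitin ligase gene Ubr3, which lies beyond the Mettl5 start, -0.14 (0.691) and the ciliary gene Bbs5 -0.09 (0.875). Fastkd1 had -0.32 (0.457) and Phospho2 -0.74 (0.344). The footprint value of Ssb, -0.50 (SE 0.15), lay inside that range. The ends of the range came from genes with few counts. Mean footprint counts were 10 for Ccdc173 (SE 0.55), 19.5 for Klhl23 (SE 0.43) and 52.7 for Phospho2 (SE 0.39). Lrp2, Ppig, Ubr3, Fastkd1 and Bbs5, with mean counts of 120 to 3625, ran from -0.37 to -0.09, and Ssb lay below them. In RNA-seq, Lrp2 had 65.7 and 86.5 CPM in KO against 18.9 and 22.8 CPM in WT, opposite to its footprints and with no overlap, but it did not pass the edgeR test (log2 fold change 1.75, SE 0.68, adjusted p = 0.146).

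The partners and target classes of the family were taken as lists of other genes, tested in the same edgeR fits. These fits had no replicate block. With the block, 24.04% of all tested genes were called in footprints, against 2.44% without it. Its counts for each list are given below, with the dependence on processing. For LARP7, 18 genes of the 7SK particle and P-TEFb were tested in footprints, and 1 rose, where 1.83% of all tested genes rose. Aff1, a scaffold of the super elongation complex that holds P-TEFb, had 27.8 and 33.3 CPM in KO and 13.2 and 16.1 CPM in WT, with no overlap (log2 fold change 1.09, SE 0.21, adjusted p = 0.0354). Aff1 lost its call without KO replicate 2 (0.90, adjusted p = 0.149). The list was balanced, with 9 negative and 9 positive values and a median of 0.01, against 0.01 for all tested genes. The median was -0.15 when KO replicate 1 was left out, -0.13 when WT replicate 2 was left out and 0.09 when KO replicate 2 was left out.

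For La, the lists were RNA polymerase III, tRNA end maturation, and the handling of uridine-rich RNA ends. Of 29 polymerase III genes, edgeR and DESeq2 each called 0 (1 had an unadjusted p below 0.05), and 22 had negative values (median -0.16). Polr1d, a subunit shared with polymerase I, had -0.44 (adjusted p = 0.193) and the snRNA activator Snapc2 -0.44 (0.312). Of 23 tRNA maturation genes, edgeR called 0 and DESeq2 1 (4 had an unadjusted p below 0.05), and 19 were negative (median -0.21). Trnt1, which adds the CCA end to tRNAs, had 56.1 and 57.7 CPM in KO and 105 and 86.4 CPM in WT, groups that were apart (-0.74, SE 0.17, adjusted p = 0.0586). Elac2, which cuts the tRNA 3′ trailer, had -0.53 (0.199). Like Larp1, Elac2 lies on chromosome 11, where the footprint median of tested genes was -0.25. Trnt1 lies on chromosome 6, as do Lsm8, Rpl32 and Paip2b below, all with negative footprint values. The footprint median of chromosome 6 is not given here, and the part of a shared chromosome in these values was not tested. Trnt1 was the DESeq2 call, and edgeR called Trnt1 and Elac2 lower when WT replicate 2 was left out.

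Of 19 genes of the Ro particle and of U6 and oligo(U) RNA handling, edgeR called 0 and DESeq2 1 (4 had an unadjusted p below 0.05), and 15 were negative (median -0.16). Lsm8 and Lsm6, subunits of the ring that binds the uridine-rich end of U6 after La, had -0.66 (adjusted p = 0.0753) and -0.60 (0.0921). Lsm8 had 70.8 and 78.9 CPM in KO and 110 and 130 CPM in WT, and Lsm6 had 50.3 and 52.5 CPM in KO and 76.7 and 80.2 CPM in WT, so neither overlapped. Lsm3, of the same ring, was the DESeq2 call. By edgeR, Lsm3 was called lower when KO replicate 2 was left out, and Lsm3, Lsm8 and the U6 methyltransferase gene Mettl16 when WT replicate 1 was left out. Over all tested genes, 49.2% had negative values.

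**Figure D5:**
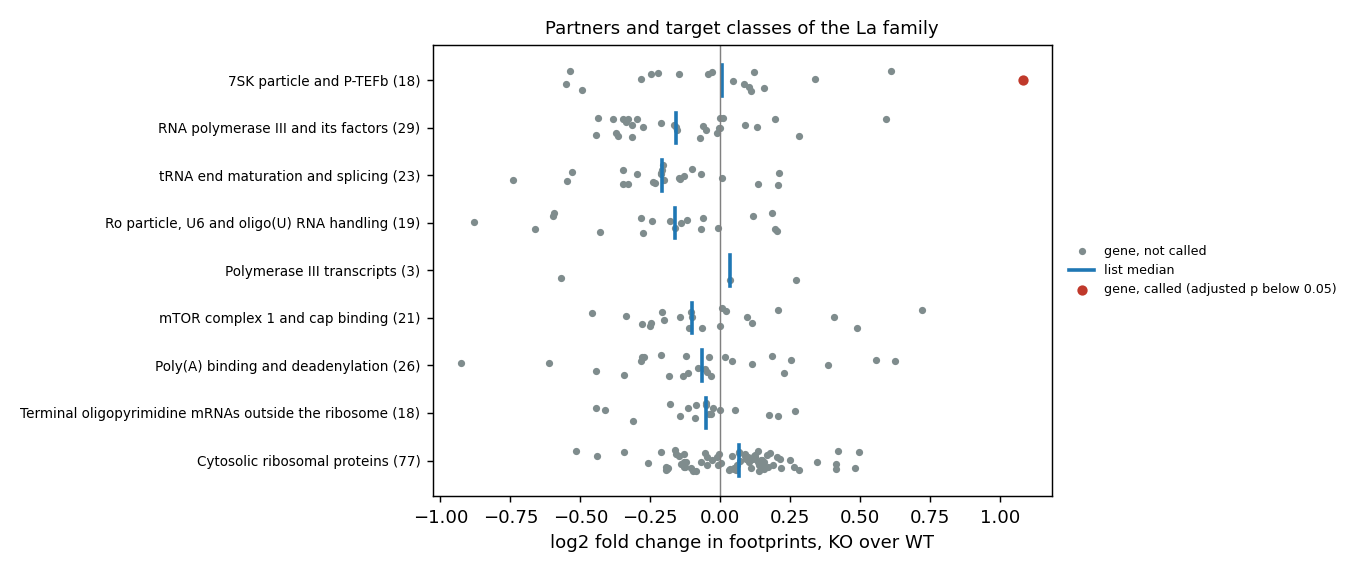
Footprint log2 fold change, KO over WT, of each tested gene (grey points; red, called) in 9 lists of partners and target classes (the 3 collagens are left out), with list medians (blue bars) and the number tested in brackets. List medians lie between -0.21 and 0.07, and the called point is Aff1 at 1.09.

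Polymerase III transcripts themselves were few in the tables. Of 2 tested in RNA-seq, 1 was called lower, where 2.68% of all tested genes were. The one not called was Rmrp (-0.76, SE 0.30). Its footprint reads were 902 and 26.7 CPM in KO and 719 and 30.7 CPM in WT, so they differed by replicate number in both genotypes. Rpph1, the RNA of ribonuclease P, fell in RNA-seq, with 102 and 153 CPM in KO against 359 and 480 CPM in WT (-1.79, SE 0.36, adjusted p = 0.0141), and the call was lost without KO replicate 1. In footprints, where such RNA is not translated, Rpph1 had 54.1 and 47.4 CPM in KO and 37.4 and 115 CPM in WT, which overlap. Vaultrc5, a vault RNA, had 7.08 and 7.49 CPM of footprint reads in KO and 4.78 and 9.75 CPM in WT (0.04). Of 3 such entries tested in footprints, edgeR and DESeq2 each called 0 (0 had an unadjusted p below 0.05), and Rpph1 was called lower when WT replicate 1 was left out.

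For LARP1, edgeR and DESeq2 each called 0 of 77 ribosomal protein genes, 0 of 18 other TOP mRNAs and 0 of 21 genes of mTOR complex 1 and cap binding in footprints. An unadjusted p below 0.05 was seen for 5 of the ribosomal protein genes, 1 of the other TOP mRNAs and 3 of the mTOR and cap genes. The median was 0.07 for ribosomal protein genes (29 negative), -0.05 for other TOP mRNAs (13 negative) and -0.10 for mTOR and cap genes (12 negative). These medians turned with the WT library left out: leaving out WT replicate 1 gave 0.24 for ribosomal protein genes and 0.19 for other TOP mRNAs, and leaving out WT replicate 2 gave -0.13 and -0.28. In these fits Rps18 and Eif4g3 were called higher (WT replicate 1 left out) and Rps15a and Pabpc1 lower (WT replicate 2 left out). Rpl32 had -0.51 (adjusted p = 0.148), Rps29 0.50 (0.162), Npm1, the nucleolar chaperone, -0.41 (0.243), Pabpc1, the main poly(A)-binding protein, -0.44 (0.368), Eif4g3, a cap-complex scaffold, 0.72 (0.165) and the helicase Eif4a1 -0.46 (0.203). Npm1 and Eif4a1 lie on chromosome 11, where the footprint median of tested genes was -0.25.

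In RNA-seq, where counts on these genes were few and their strand is not known, 5 of 44 ribosomal protein genes fell and 0 rose, where 2.68% of all tested genes fell. Their RNA-seq median was -0.93, with 36 of 44 negative, and that of all tested genes was 0.01. Rpl32 had 19.7 and 31.7 CPM in KO RNA-seq and 147 and 159 CPM in WT RNA-seq (-2.70, SE 0.53). Rpl32 passed the filter on low counts only through WT, where it was high, so nothing is read from its call. Whether other genes of this list passed through 1 genotype was not examined, so these list counts are a description. The number that fell was 0 when KO replicate 1 was left out, 8 when WT replicate 1 was left out and 3 by DESeq2. At a mean count of at least 50, 2 ribosomal protein genes were left, with a median of 0.28. Of 7 other TOP mRNAs tested in RNA-seq, Eef1a1, the elongation factor gene, fell (-1.42, SE 0.31, adjusted p = 0.0214), and the call was lost when KO replicate 1 was left out. Rn45s was lower in the same KO libraries, as given above, and its part was not tested.

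For LARP4 and LARP4B, edgeR called 0 and DESeq2 1 of 26 genes of poly(A) binding and deadenylation in footprints (3 had an unadjusted p below 0.05; median -0.07, 17 negative). Paip2b, an inhibitor of poly(A)-binding protein, had 29.4 and 37.8 CPM in KO and 57.6 and 72.0 CPM in WT, with no overlap (-0.93, SE 0.21, adjusted p = 0.0581), and it was the DESeq2 call and was called by edgeR when WT replicate 1 or KO replicate 2 was left out. Leaving out WT replicate 2 called Btg1, Cnot4 and Pabpc1 instead. Tnks1bp1, a binder of the CCR4-NOT deadenylase, had 0.63 (0.138).

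For LARP6, Col3a1, a fibrillar collagen, had 3.54 and 8.88 CPM of footprints in KO against 0.669 and 0.238 CPM in WT (3.72, SE 0.65). These were 33 and 102 counts in KO against 7 and 2 in WT. Col3a1 passed the filter on low counts only through KO, where it was high, so nothing is read from its call. It was the 1 called of 3 collagen mRNAs tested, where 1.83% of all tested genes were called higher. At a mean count of at least 50, 0 of 2 collagen mRNAs were called. With no filter on low counts, 3 of 3 were called higher, where 6.41% of all genes were called in either direction. The median of the 3 was 2.37, and 1.79 to 3.37 with 1 library left out. Col1a1 had 2.37 (SE 0.56, adjusted p = 0.132) and Col1a2 2.14 (SE 0.57, adjusted p = 0.144). These 3 genes are also among the fibroblast markers, whose summed footprints were higher in KO as given above, and Larp6 itself had 4 footprint counts in all.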

How the data were processed

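Ribo-seq and RNA-seq libraries of KO and WT mESC were analysed, 2 per genotype and assay, made with a small RNA kit per the labels' protocols. The submitters' processing notes list Bowtie2 (2.3.4.3), RSEM and mm10, without the strand setting. The authors' tables give, per the file headers, an expected count (RSEM's estimate, which divides shared reads between genes), a TPM and an FPKM for each gene. Here expected counts were rounded for tests, CPM used their unrounded totals, the deposited TPM ordered levels between genes, and the deposited FPKM was not used.

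Each assay was fitted separately with edgeR 4.0.16 (TMM, filterByExpr with its minimum count of 10, robust quasi-likelihood test, Benjamini-Hochberg adjustment over all genes tested, threshold 0.05). The relative footprint change was the interaction of assay and genotype in a fit of all 8 libraries. The SE was the log2 fold change divided by the square root of F. A pseudocount of 0.5 CPM was used for log2 CPM. The fits were tested on simulated counts. Replicates differed beyond sampling noise (chi-square per degree of freedom 21.4 for KO and 24.2 for WT Ribo-seq, 2.97 for KO and 7.05 for WT RNA-seq). The p-values reflect only how far these libraries vary.

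Alternatives were DESeq2 1.42.0, RLE scaling, other filters, a replicate block, chromosome medians removed, CPM without Rn45s, and leaving out each library. The members, gene lists and tests were chosen with earlier results of these data known. Named genes were the members and Mettl5, genes within 500000 bases of Mettl5, the 5 profiles nearest Ssb, and from each list up to 4 genes called in footprints or else the 2 with the smallest p. Zgrf1, Gm13625, Rmrp, the microRNAs, Rn45s, Klhl41 and the marker genes were added after values were seen. So were the other 2 collagens, genes called in RNA-seq and list genes called under an alternative. RefSeq matched 22527 of 23845 symbols.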

Additional observations from a re-analysis of the deposited data

Results flagged for a closer look

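Larp7 had opposite directions in the 2 assays, in every library. Both KO RNA-seq libraries (131 and 242 CPM) were above both WT RNA-seq libraries (18.9 and 13.7 CPM), and both KO Ribo-seq libraries (62.3 and 66.9 CPM) were below both WT Ribo-seq libraries (89.3 and 76.1 CPM). The footprint minus RNA-seq log2 fold change was -3.75. The difference is given without a test, because the same contrast was used to choose the genes described.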

How the results depend on the processing

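Of the footprint fold changes of members, those of Ssb (-0.55 to -0.45), Larp1 (-0.43 to -0.04), Larp1b (-0.75 to -0.55), Larp4 (-0.20 to -0.02) and Larp7 (-0.46 to -0.22) were negative under every alternative that kept the gene, and Larp4b ranged from -0.03 with the chromosome median removed to 0.08. RNA-seq values ranged from -5.02 to -3.43 for Ssb and from 2.84 to 3.80 for Larp7, and values of footprints relative to RNA-seq from 3.14 to 4.92 for Ssb and from -3.91 to -3.05 for Larp7; neither gene reached a mean RNA-seq count of 50. Genes called in footprints numbered 301, against 1110 with no filter, 186 at a mean count of at least 50, 2960 with the replicate block, and 189 to 761 with 1 library left out. Genes called in RNA-seq numbered 133, against 75 by DESeq2, 76 at a mean count of at least 50, 155 with the replicate block, and 73 to 242 with 1 library left out. For footprints relative to RNA-seq, 135 were called, against 17 at a mean count of at least 50, 160 with the replicate block, and 18 to 154 with 1 library left out. Under the replicate block Ssb, Larp1 and Larp7 were the members called in footprints, as were 24.04% of all genes. The block also called, all lower, 4 of 29 polymerase III genes, 5 of 23 tRNA genes, 5 of 19 Ro and U6 genes and 1 of 18 other TOP mRNAs; 4 of 18 genes of the 7SK list (2 higher), 5 of 21 of mTOR and cap binding (3 higher), 6 of 26 of poly(A) handling (2 higher) and 8 of 77 ribosomal protein genes (5 higher); Rpph1, lower; and all 3 collagens, higher. Same-numbered footprint libraries deviated together (r = 0.57 over 9254 genes averaging 50 counts or more), RNA-seq libraries less so (0.067 over 463 genes), and same-numbered footprint tables carry a shared, date-like tag in their names in both genotypes, though the labels do not say what a number marks; if it marks a day, the block is the fit that allows for it. With 1 library left out, footprint values of list genes changed sign for Rpph1 (-1.16 to 0.44) and Vaultrc5 (-0.40 to 0.62), neither called in the fit reported. The cause of these shifts was not tested. Leaving Rn45s out of CPM left 6 of 7 members with a lower KO mean in footprints, as in the values reported. RNA-seq counts of members other than Ssb and Larp7 were at most 10 a library, which limits what can be seen there.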

Other observations

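Klhl41, a muscle gene within 500000 bases of Mettl5, had 0 and 1.02 footprint counts in KO and 1.04 and 0 in WT, but 702 and 555 CPM in KO RNA-seq and 643 and 803 CPM in WT RNA-seq. It shared 0 exon bases with its neighbours Bbs5 and Fastkd1. Mettl5 stood at 774 and 1025 TPM in KO RNA-seq and 1167 and 1787 TPM in WT RNA-seq, above the 99th percentile of entries in each library. No cause was tested for either level.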
